A study of Mus musculus with 6 samples.

Results

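Cytokines, chemokines, adhesion molecules and other genes that answer to the transcription factor NF-kB were examined in mouse sarcoma cells that carry or lack the microRNA-processing enzyme Dicer. The list held 30 genes, and 28 of them had a probe set annotated to exactly 1 symbol, out of 18193 genes named on the arrays. Il1rl1 and C3 were not analysed here. Each gene was represented by its probe set with the highest mean over the 6 arrays, a choice that does not use the difference between the groups. The groups were 3 arrays of a sarcoma line labelled Dicer Heterozygote, with 1 intact copy of the gene, and 3 arrays labelled Dicer Null, with none, all on strain C57BL6/J. Both groups were grown to confluence in the same serum-containing medium, with no cytokine or other stimulus named. The labels do not say how the allele was deleted, how the tumours arose or whether the 3 arrays of a group come from separate lines, clones or cultures. The spread that the tests use is therefore that of these samples and may be technical.

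NF-kB dimers are held in the cytoplasm by inhibitory proteins such as the product of Nfkbia. Signals from the receptors of tumour necrosis factor and interleukin 1 and from Toll-like receptors activate a kinase that marks the inhibitor for destruction, and the released factor enters the nucleus. It switches on cytokines, chemokines and adhesion molecules, and also Nfkbia and Tnfaip3, whose products shut the pathway down again. Fibroblasts and mesenchymal tumour cells secrete many of these proteins and so attract and sustain leukocytes. Many cytokine messengers are short-lived and are repressed by RNA-binding proteins and microRNAs.

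Sequences before the gene starts are shown for 7 members, because kappa B sites are what ties such genes to the factor. RefSeq promoters of build GRCm38.p6, from 250 bases before to 50 after each start, were found for 21 of the 28 members, 24 promoters in all. Those of Cxcl5, Ccl2, Ccl5, Ccl7, Csf3, Nos2 and Vcam1 were not matched. The kappa B consensus was searched on both strands with overlapping matches joined, and it occurred in 9 of the 24 promoters, or 37.5% (Ccl20, Csf1, Cxcl1, Cxcl2, Cxcl10, Il6, Lif, Nfkbia and Tnfaip3, 1 promoter each), against 8.46% of all 32851 promoters of that length. TTGCNNAA, the core of the sites that C/EBP factors bind, occurred in 6 of the 24 (Csf2, Il33, Il6, Lcn2, Ptgs2 and Saa3), against 10.8%. TGANTCA, the AP-1 core, occurred in 6 of the 24 (Cxcl10, Il11, Il1a, Il6, Lif and Tnfaip3), against 7.81%. A match describes letters only. The members were listed as cytokines, chemokines and NF-kB response genes. A higher share of kappa B matches may therefore reflect that choice, and it says nothing about the arrays. The last 130 bases before each start follow, 5′ to 3′ on the gene's strand, with capitals marking the kappa B match in the first 5 and the TTGCNNAA match, on either strand, in Saa3 and Ptgs2.
Il6 (chr5:30012984-30013113, plus strand): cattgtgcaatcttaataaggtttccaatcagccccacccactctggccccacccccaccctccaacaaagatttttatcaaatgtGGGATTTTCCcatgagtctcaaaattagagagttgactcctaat
Nfkbia (chr12:55492648-55492777, minus strand): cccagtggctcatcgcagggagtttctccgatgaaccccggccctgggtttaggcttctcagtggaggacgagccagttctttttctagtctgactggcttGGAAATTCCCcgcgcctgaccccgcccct
Tnfaip3 (chr10:19015411-19015540, minus strand): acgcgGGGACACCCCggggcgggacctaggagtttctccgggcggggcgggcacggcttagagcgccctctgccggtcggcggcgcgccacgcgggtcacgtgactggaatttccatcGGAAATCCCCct
Cxcl1 (chr5:90891115-90891244, plus strand): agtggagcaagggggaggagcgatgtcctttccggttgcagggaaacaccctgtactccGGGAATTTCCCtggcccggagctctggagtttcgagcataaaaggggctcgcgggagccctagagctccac
Cxcl10 (chr5:92348890-92349019, minus strand): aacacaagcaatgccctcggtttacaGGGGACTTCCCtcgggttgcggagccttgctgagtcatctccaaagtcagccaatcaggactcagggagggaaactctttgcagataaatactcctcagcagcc
Saa3 (chr7:46715677-46715806, minus strand): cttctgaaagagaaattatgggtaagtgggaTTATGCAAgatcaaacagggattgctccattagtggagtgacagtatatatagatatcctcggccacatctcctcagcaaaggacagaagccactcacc
Ptgs2 (chr1:150099901-150100030, plus strand): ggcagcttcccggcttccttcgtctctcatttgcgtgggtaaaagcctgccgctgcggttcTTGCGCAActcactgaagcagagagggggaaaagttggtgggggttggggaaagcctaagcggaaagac
Cxcl1 and Cxcl2, both on chromosome 5, carry the same 11 letters, GGGAATTTCCC, at 71 to 61 and 97 to 87 bases before their starts. Tnfaip3 has 2 matches in the stretch shown. Cxcl10 has a further one, GGGAAATTCC, at 159 to 150 bases, outside it.

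The arrays held 45037 probe sets as log2 values from GCRMA, which corrects background by probe sequence, and 24385 with a mean of at least 3 were tested, 11425 named genes among them. A log2 value of 3 was taken as the edge of background, since 78 of 81 probe sets for olfactory and similar receptors had means below it. Dicer1 itself read 8.60, 8.19 and 8.17 in heterozygous and 8.56, 8.40 and 8.42 in null arrays (limma adjusted p = 0.693), and since the deleted part is not given this neither supports nor questions the labels. Of 14 mesenchymal markers 13 reached the minimum. Leukocyte markers were mostly at background: 6 of 23 reached the minimum (Coro1a, Cd79b, Cd74, Cd68, Cd14 and Cd53), their summed linear value was 335 to 439 in heterozygous and 282 to 358 in null arrays, and the pan-leukocyte gene Ptprc read 1.55 to 1.62 in all arrays. Of 10 endothelial markers 1 reached it (Egfl7), with Pecam1 and Cdh5 between 1.72 and 2.31. Arrays within the heterozygous group stood apart from each other. In heterozygous replicate 3 the median deviation of 13 proliferation genes from their means was -0.99. It was 0.07 and -0.03 in heterozygous replicates 1 and 2 and 0.24 to 0.58 in the null arrays. All 13 had a higher mean in null arrays (median difference 0.68), while 49.5% of all named genes had a lower one. In 9 the groups did not overlap, against 12.4% of all named genes without overlap and higher in null arrays. In limma 0 passed, and 5 (38.5%) stood at an unadjusted p under 0.05 against 24% of tested genes. The part of this shift in the members' differences was not tested. Heterozygous replicate 1 read 9.02 for the keratin Krt18, against 2 to 2.68 in the other 5 arrays. Among 8 epithelial markers 3 reached the minimum, and their list's summed linear value was 59.2 to 1044 in heterozygous and 125 to 398 in null arrays.

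No member passed the test, at an adjusted p of 0.05. Of the 19 tested members, 0 were called higher and 0 lower in Dicer null arrays in limma (moderated statistics, Benjamini-Hochberg over all probe sets), against 3.46% of all tested genes (1.45% higher, 2% lower). Adjusted p-values ran from 0.057 for Il11 to 0.964 for Lif. At an unadjusted p under 0.05 stood 11 of the 19, 3 higher and 8 lower, against 24% of tested genes in either direction and 13.5% lower. Il33 and Ccl8 entered the test only through the heterozygous arrays and Il11 only through the null arrays, the other group's mean being below 3, so the count over tested members is no support for a shift. Over all 28 members the median log2 difference was -0.29, against 0 over all named genes. Of the 28, 21 differences were below 0, against 49.5% of all named genes. Of the 19 tested, 14 were below 0, against 51.1% of tested genes. The rest of the 21 belonged to members with means in the background range. The values of the groups did not overlap in 11 of the 28, 9 lower and 2 higher in null arrays, against 26% of all named genes (13.6% lower, 12.4% higher). The members were chosen with earlier results of these data known, so none of these shares is support for a shift. The count of calls changed with 1 array: without heterozygous replicate 3 Vcam1 passed (adjusted p = 0.0304), and without null replicate 1 Il11 passed (0.0439). Variance moderation with a trend and a robust prior called 2 members, Il11 and Nfkbia, while 4.6% of tested genes were called, and gene-by-gene array weights called 5, Il11, Vcam1, Saa3, Icam1 and Tnfaip3, while 13.1% were.

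**Figure D1:**
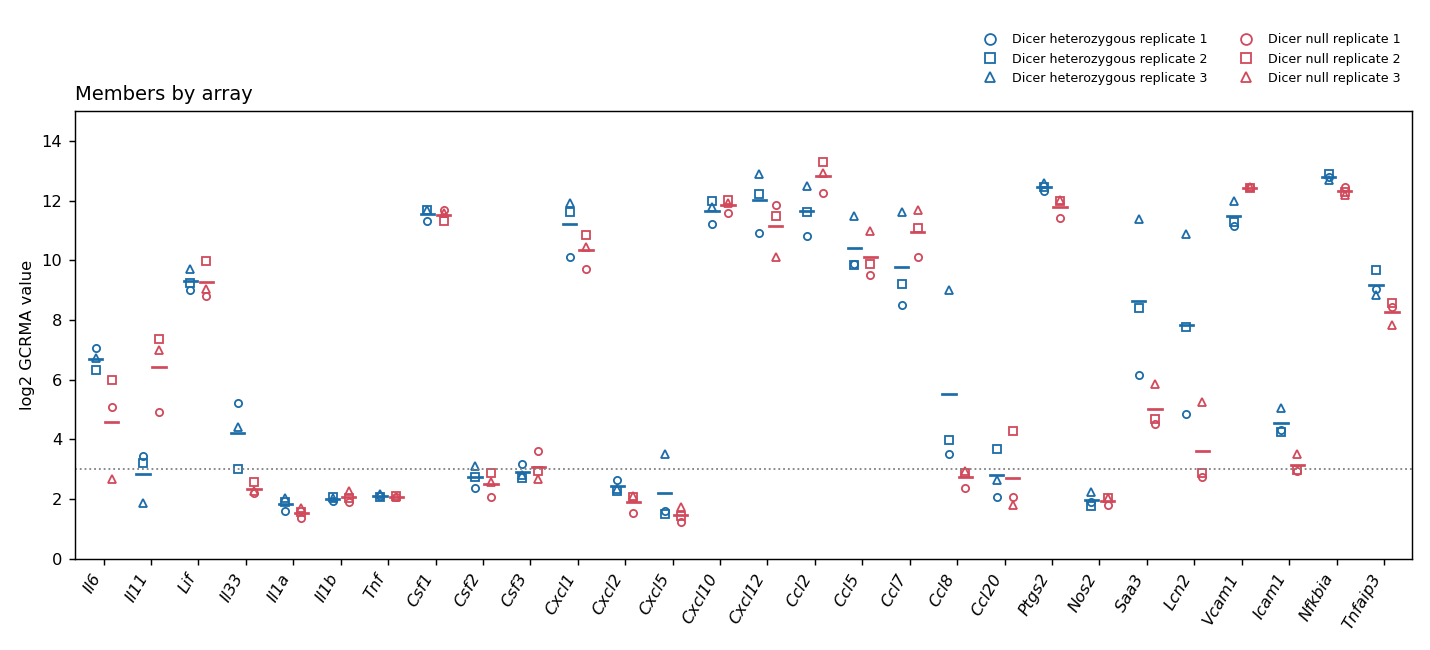
Log2 GCRMA value (vertical axis) of the 28 members in each array, blue for Dicer heterozygous and red for Dicer null, with a marker shape for each replicate number, short bars for the group means of 3 arrays and a dotted line at the minimum of 3. Saa3, Lcn2 and Ccl8 are widely spread among the heterozygous arrays with replicate 3 highest, while the null arrays of Vcam1 lie within 0.04 of each other.

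In RNA of whole cultures, fewer cells that make a transcript and less of it per cell cannot be told apart. The feedback inhibitors of NF-kB among the members were both lower in every null array than in any heterozygous array. Nfkbia, which encodes the inhibitor that retains the factor in the cytoplasm, read 12.81, 12.91 and 12.69 in heterozygous arrays and 12.47, 12.29 and 12.20 in null arrays. Its log2 difference was -0.48 (SE 0.16, 95% interval -0.88 to -0.09, limma adjusted p = 0.151). The gene had 5 tested probe sets, and in each of them the null arrays lay below the heterozygous ones. The differences of the other 4 were -0.44, -0.67, -0.997 and -1.30, so the brightest probe set gave nearly the smallest. One of the 4, chosen here after its values were seen, passed over all probe sets, of which 3.1% did. It read 11.90, 12.14 and 12.06 against 11.19, 10.81 and 11.11 (difference -0.997, SE 0.18, adjusted p = 0.0451), and it failed in each fit that left out 1 array (0.0641 to 0.149). Tnfaip3, a ubiquitin-editing enzyme that ends NF-kB signalling, read 9.03, 9.69 and 8.83 in heterozygous arrays. Its null values were 8.45, 8.57 and 7.84, all lower, and the difference was -0.90 (SE 0.31, 95% interval -1.65 to -0.15, adjusted p = 0.158). The promoter stretches of both genes, printed above, hold kappa B matches, at 29 to 20 bases before the start of Nfkbia and at 125 to 116 and 12 to 3 bases before that of Tnfaip3.

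Neither adhesion molecule passed the test, and their estimates had opposite signs. Vcam1, the ligand on stromal and endothelial cells for leukocyte integrins of the alpha 4 type, read 11.17, 11.30 and 12 in heterozygous arrays and 12.46, 12.42 and 12.45 in null arrays. All null values were higher and almost equal, and the log2 difference was 0.95 (SE 0.25, 95% interval 0.35 to 1.56, limma adjusted p = 0.0939). The other tested probe sets of Vcam1 gave larger differences, 2.05 and 1.49, also without overlap. The dimmest of the 3, singled out after its values were seen, passed over all probe sets with 8.33, 8.38 and 9.10 against 9.95, 10.06 and 10.27 (SE 0.25, adjusted p = 0.0422). It did not pass with no minimum (0.0516). Leaving out heterozygous replicate 3 gave 0.0183, and leaving out any other array gave 0.0761 to 0.151. Icam1, which binds the integrins of the beta 2 type, read 4.30, 4.25 and 5.05 in heterozygous arrays. Its null values were 2.93, 2.97 and 3.52, of which 2 lay under the background edge, and the difference was -1.39 (SE 0.29, 95% interval -2.10 to -0.68, adjusted p = 0.0597).

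**Figure D2:**
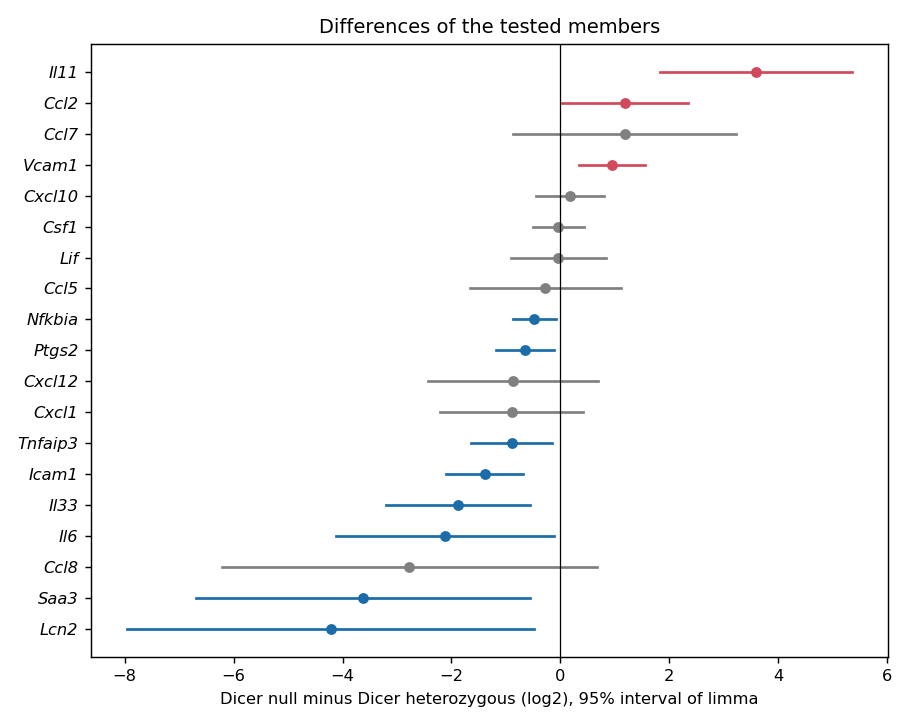
Log2 difference, Dicer null minus Dicer heterozygous (horizontal axis), of the 19 tested members in order of size, with points for the estimate and lines for limma's 95% interval. Intervals that exclude 0 are coloured, blue for 8 lower and red for 3 higher members, and none of these 11 passed the adjusted threshold.

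Of the cytokines that signal through the shared receptor chain encoded by Il6st, Il11 and Il6 pointed in opposite directions and Lif did not separate the groups. Il11, a cytokine of stromal cells linked to fibrosis, read 3.44, 3.19 and 1.88 in heterozygous and 4.93, 7.35 and 6.99 in null arrays. The null arrays were all higher, at least 10.7-fold by their mean against a log2 value of 3 (log2 difference 3.59, SE 0.73, 95% interval 1.82 to 5.35, limma adjusted p = 0.057). Without null replicate 1 the difference was 4.33, without null replicate 2 it was 3.12, and without heterozygous replicate 3 it was 3.11. Folds written as "at least" use that floor because the dimmer group's mean lay below it. Il6, the inducer of the acute-phase response, read 7.05, 6.34 and 6.74 in heterozygous arrays. In null arrays it read 5.10, 6 and 2.67, lower in each but spread over 3.33 log2 units, and the difference of -2.12 (SE 0.82, 95% interval -4.11 to -0.13) had an adjusted p of 0.194. Without null replicate 3 the difference was -1.16, and without null replicate 2 it was -2.83. Lif, which keeps stem cells undifferentiated, lay between 9.01 and 9.70 in heterozygous and between 8.80 and 9.99 in null arrays (difference -0.04, 95% interval -0.91 to 0.83). Il33, an alarmin stored in the nucleus, read 5.23, 3.01 and 4.42 against 2.21, 2.57 and 2.25, so that every null value was in the background range. It was at least 2.33-fold lower by the means (difference -1.88, SE 0.54, adjusted p = 0.114), and the difference was -2.48 without heterozygous replicate 2 (adjusted p = 0.0569). The difference was -1.37 without heterozygous replicate 1 (0.16), and -1.22 with values below 3 set to 3 (0.242).

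Among the chemokines of the CXC class, which include attractants of neutrophils and of lymphocytes, no detected member separated the groups. Cxcl1, a neutrophil attractant, read 10.11, 11.64 and 11.94 in heterozygous and 9.72, 10.84 and 10.44 in null arrays. The groups overlapped through heterozygous replicate 1, and the difference was -0.90 (SE 0.54, 95% interval -2.21 to 0.42, limma adjusted p = 0.371). Its 2 other probe sets gave -1 and -1.12 with the same order of arrays in the heterozygous group. Cxcl10, an interferon-inducible attractant of T cells, was nearly level, with 11.21, 12 and 11.79 against 11.59, 12.01 and 11.94 (difference 0.18, 95% interval -0.44 to 0.80). Cxcl12, the stromal factor that retains blood stem cells in marrow, read 10.92, 12.24 and 12.90 against 11.86, 11.49 and 10.12. The spread within each group exceeded the difference of -0.86 (SE 0.64, adjusted p = 0.468). A second tested probe set gave -0.27 (adjusted p = 0.897).

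The CC chemokines, mainly attractants of monocytes and lymphocytes, did not share a direction. Ccl2, the main attractant of monocytes, read 10.82, 11.61 and 12.50 in heterozygous and 12.27, 13.29 and 12.94 in null arrays, a difference of 1.19 (SE 0.48, 95% interval 0.04 to 2.34, limma adjusted p = 0.205). Heterozygous replicate 3 lay within the range of the null arrays, and without it the difference was 1.62. Without heterozygous replicate 1 the difference was 0.78. Ccl7, a relative of Ccl2 with overlapping receptors, showed the same arrangement: 8.52, 9.22 and 11.61 against 10.11, 11.09 and 11.69 (difference 1.18, SE 0.84, adjusted p = 0.449). It was 2.09 without heterozygous replicate 3 and 0.55 without heterozygous replicate 1. Ccl5, an attractant of T cells and eosinophils, read 9.87, 9.85 and 11.49 against 9.52, 9.89 and 10.98, with no separation (difference -0.27, 95% interval -1.67 to 1.12). Ccl8 owed most of the size of its difference to 1 array. It read 3.52, 3.97 and 9.02 in heterozygous arrays and 2.38, 2.87 and 2.93 in null arrays. By the means it was at least 5.67-fold lower (difference -2.78, SE 1.42, adjusted p = 0.298). Without heterozygous replicate 3 the difference was -1.02 (adjusted p = 0.0941). Every null value was still lower there, and all lay in the background range. Without heterozygous replicate 1 or 2 it was -3.77 or -3.54.

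The acute-phase genes had the largest negative differences of the tested members and, with Ccl8, the widest spread among heterozygous arrays. Saa3, a serum amyloid made outside the liver, read 6.15, 8.40 and 11.38 in heterozygous and 4.51, 4.69 and 5.86 in null arrays. Each null value was lower, and the log2 difference was -3.62 (SE 1.26, 95% interval -6.69 to -0.56, limma adjusted p = 0.162). Lcn2, which binds bacterial iron carriers, read 4.85, 7.76 and 10.88 against 2.72, 2.88 and 5.25. Its groups overlapped through heterozygous replicate 1 and null replicate 3, and the difference was -4.21 (SE 1.54, 95% interval -7.95 to -0.48, adjusted p = 0.176). Without heterozygous replicate 3 the differences were -2.26 for Saa3 and -2.69 for Lcn2, and without heterozygous replicate 1 they were -4.87 and -5.70. Without null replicate 3 that of Lcn2 was -5.03. Heterozygous replicate 3, lowest in the proliferation genes, was the highest of the 6 in 13 of the 28 members, against 19.5% of all named genes. Among these 13 were Il1a, Cxcl5, Tnf, Csf2 and Nos2, whose means lay in the background range. Ptgs2, the inducible cyclooxygenase of prostaglandin synthesis, was steadier: 12.32, 12.47 and 12.59 in heterozygous and 11.41, 11.99 and 12.02 in null arrays. The groups did not overlap, the difference was -0.65 (SE 0.22, 95% interval -1.19 to -0.12, adjusted p = 0.153), and a second probe set gave -1.40, also without overlap.

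The colony-stimulating factor of macrophages, Csf1, differed by probe set. Its brightest probe set was level, at 11.32, 11.70 and 11.68 in heterozygous and 11.68, 11.32 and 11.59 in null arrays (difference -0.04, 95% interval -0.50 to 0.43, limma adjusted p = 0.933), and another gave -0.12. The remaining 2 were lower in every null array. One of these read 11.35, 11.61 and 10.51 against 9.68, 9.04 and 9.56 (difference -1.73, SE 0.34, adjusted p = 0.0538), and the other read 10.77, 10.99 and 9.90 against 8.87, 8.14 and 9.07 (difference -1.86, SE 0.38, adjusted p = 0.0566). Both passed without heterozygous replicate 3 (0.0269 and 0.0352). Leaving out any other array gave 0.101 to 0.16 and 0.106 to 0.154, so neither passed. Which part of the transcript each probe set reads was not examined here. In all 6 members with more than 1 tested probe set, the tested probe sets shared a sign. For Csf1 and Cxcl12 this included differences that turned sign without 1 array. The brightest probe set of Csf1 gave 0.07 without null replicate 2, and the dimmer tested one of Cxcl12 gave 0.64 without null replicate 3.

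**Figure D3:**
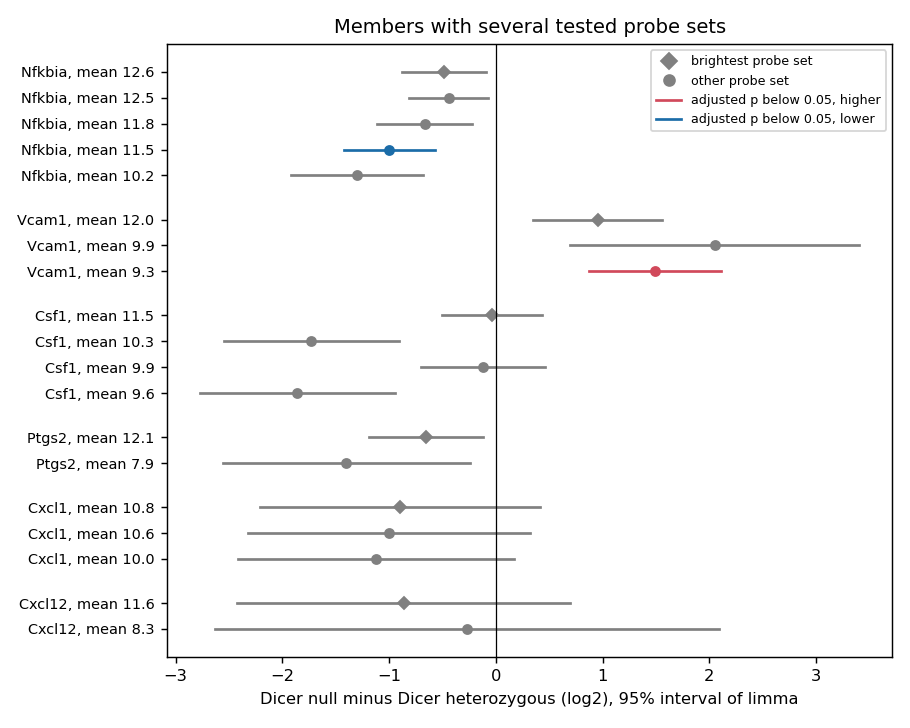
Log2 difference, Dicer null minus Dicer heterozygous (horizontal axis), of each tested probe set of the 6 members that have several, labelled with its mean over the 6 arrays, with limma's 95% interval as a line. Diamonds mark the brightest probe set. The coloured probe sets, 1 of Nfkbia at -0.997 and 1 of Vcam1 at 1.49, passed the adjusted threshold, and those of Csf1 fall into a level and a lower pair.

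The remaining 9 members had a mean below 3 and were not tested: Il1a, Il1b, Tnf, Cxcl2, Cxcl5, Ccl20, Csf2, Csf3 and Nos2. Their values lay between 1.24 and 4.29, and 5 of them were below 3 in every array. They include the founding inflammatory cytokines. Tnf read 2.05 to 2.15 in all 6 arrays, Il1b 1.90 to 2.27, and Il1a 1.36 to 2.02. Nos2, the inducible nitric oxide synthase, read 1.77 to 2.22. Single arrays stood above the edge for Cxcl5 (3.50 in heterozygous replicate 3) and Csf2 (3.09 in the same array), and Ccl20 reached 3.68 in heterozygous replicate 2 and 4.29 in null replicate 2. Csf3, the granulocyte factor, reached 3.18 in heterozygous replicate 1 and 3.61 in null replicate 1. Of the 9, Cxcl2 alone had groups that did not overlap, at 2.28 to 2.64 against 1.53 to 2.11, all in the background range.

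Receptors for the members were measured in the same arrays. Of 40 listed receptor genes 37 were on the arrays and 19 were tested, with 1 called higher and 0 lower, or 5.26%, near the 3.46% of all tested genes. The called gene was Tnfrsf1b, the inducible receptor of tumour necrosis factor, which rose from 7.47, 6.67 and 6.67 to 9.55, 9.13 and 9.09. The rise was 4.99-fold (log2 difference 2.32, SE 0.28, limma adjusted p = 0.0203), but it did not pass without heterozygous replicate 2 or null replicate 1, 2 or 3 (0.0607 to 0.0826). Tnfrsf1a, the receptor present on most cells, was level at 9.79 ± 0.39 and 9.76 ± 0.23 (SD, n = 3). The interleukin 1 receptor chains, described here for their role after their values were seen, were higher in every null array: Il1r1 read 6.26, 8.54 and 9.94 against 10.52, 10.77 and 10.67 (adjusted p = 0.173), and Il1rap read 7.53, 7.24 and 6.20 against 8.55, 8.59 and 9.40 (adjusted p = 0.0681). Il6st, the shared chain for Il6, Il11 and Lif, was at 11.35 ± 0.22 and 11.85 ± 0.21 (adjusted p = 0.205), Il6ra at 7.06 ± 0.59 and 7.68 ± 0.56, and Lifr at 7.15 ± 0.99 and 7.19 ± 1.03 (SD, n = 3 each). Of the receptors known from leukocytes, Cxcr2 read 1.13 to 1.42, Ccr2 1.27 to 1.67 and Csf1r 2.03 to 2.45, all in the background range. Others stood above it in some arrays. Csf2ra, a receptor chain for Csf2, read 5.85, 3.64 and 2.98 in heterozygous and 2.17, 1.92 and 1.52 in null arrays (adjusted p = 0.135). The integrin chain Itgb2 read 4.06, 2.78 and 2.66 against 3.06, 3.36 and 3.11.

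The NF-kB subunits and signalling genes that could be analysed gave no call. Nfkb1, Chuk, Traf3 and Ripk1 were among the listed genes without a probe set annotated to exactly 1 symbol. Of 40 listed genes 35 were on the arrays and all 35 were tested, with 0 called by limma in either direction, 6 (17.1%) at an unadjusted p under 0.05, against 24% of all tested genes. The smallest p was that of Nfkbie, another inhibitor of the Nfkbia family, at 6.20, 6.53 and 5.79 in heterozygous and 4.66, 5.40 and 4.50 in null arrays (log2 difference -1.32, SE 0.31, adjusted p = 0.0776). Its null values, like those of Nfkbia and Tnfaip3, were all below the heterozygous ones. Other genes of the list did not share this. Nfkbib differed by 0.07 and Nfkbiz by -0.30, both with overlap. Bcl3 differed by 2.20, higher in every null array (adjusted p = 0.121). The subunit gene Rela read 8.96, 9.13 and 9.29 against 8.61, 8.52 and 8.60 (adjusted p = 0.117). Rel read 4.26, 4 and 4.41 against 4.55, 4.51 and 5.12 (adjusted p = 0.255), so the subunits did not point one way. Relb and Nfkb2 differed by -0.22 and -0.21, within their spread.

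**Figure D4:**
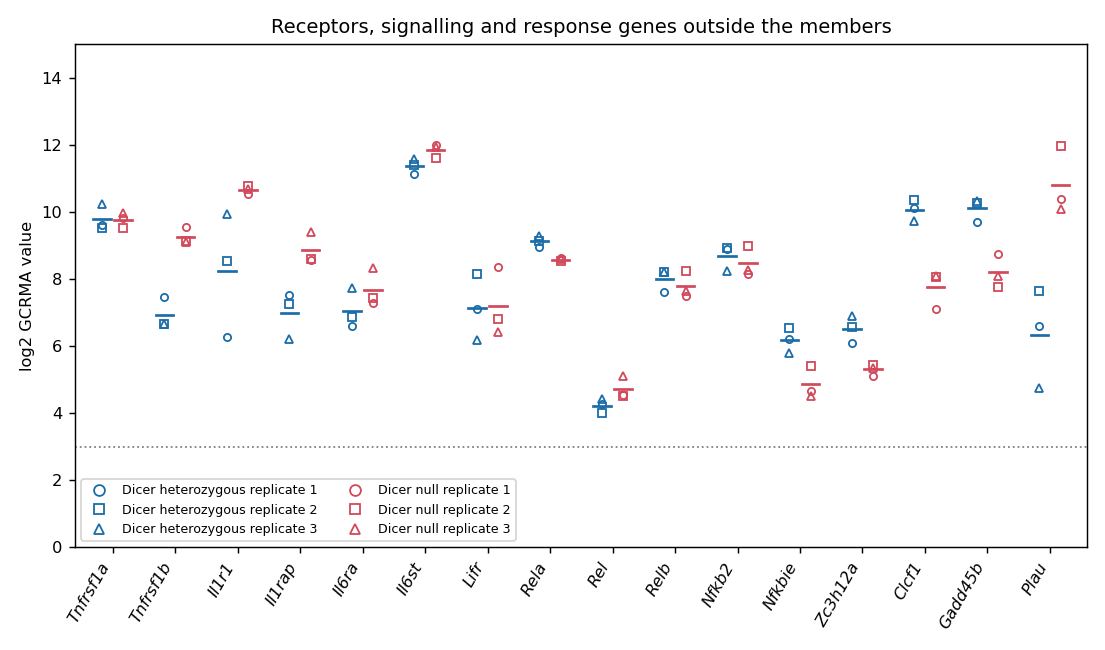
Log2 GCRMA value (vertical axis) of 16 genes outside the members in each array, blue for Dicer heterozygous and red for Dicer null, with a marker shape for each replicate number, bars for the means of 3 arrays and a dotted line at 3. Tnfrsf1b and Plau lie higher and Clcf1 and Gadd45b lower in null arrays and passed the test, while Tnfrsf1a and Lifr are level.

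In 3 further lists 3 of 70 tested genes were called, or 4.29%, near the 3.46% of all tested genes. Among 53 other secreted cytokines, chemokines and acute-phase genes, 51 were on the arrays and 31 tested, with 0 called higher and 1 lower. This was Clcf1, a cytokine of the Il6 family, which fell from 10.12, 10.36 and 9.71 to 7.11, 8.07 and 8.10 (4.94-fold, log2 difference -2.30, SE 0.33, limma adjusted p = 0.0289). Leaving out heterozygous replicate 3 kept the call (0.0345), and leaving out any other array ended it (0.0516 to 0.0934). Among 30 transcription factors and early response genes, 27 were on the arrays and 25 tested, with 1 called higher and 1 lower. Gadd45b, a stress gene, fell from 9.70, 10.27 and 10.33 to 8.73, 7.77 and 8.08 (3.75-fold, SE 0.31, adjusted p = 0.0382). Leaving out heterozygous replicate 1 kept the call (0.0465), and leaving out any other array ended it (0.0514 to 0.139). Plau, the urokinase that activates plasmin, rose from 6.59, 7.64 and 4.76 to 10.37, 11.97 and 10.08 (22.3-fold, SE 0.83, adjusted p = 0.0484). No fit without 1 array called it (0.0502 to 0.141), and its fold was 12.9 without heterozygous replicate 3 and 35.1 without heterozygous replicate 2. With no minimum the adjusted p was 0.0505 for Gadd45b and 0.0706 for Plau. Of 16 regulators of cytokine messenger stability 14 were tested and 0 were called by limma. At an unadjusted p under 0.05 stood 1 (7.14%), below the 24% of all tested genes. That was Zc3h12a, a nuclease that cuts cytokine messengers, including that of Il6. It read 6.09, 6.56 and 6.89 in heterozygous and 5.11, 5.44 and 5.35 in null arrays (difference -1.21, SE 0.25, adjusted p = 0.0568), and it passed without heterozygous replicate 1 (0.0452). Leaving out any other array gave 0.0717 to 0.171.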

How the data were processed

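RNA of 6 mouse sarcoma samples, 3 per genotype, was hybridised to 3′ expression arrays. The deposited table gives 1 log2 value for each probe set and array, a scale inferred from the range (0.40 to 14.18) and from GCRMA, which writes it. The submitters' processing notes name GCRMA 2.20.0 in R 2.11.1, and give no further settings in the sources used here. GCRMA pulls dim probe sets to low values and equalises arrays, so differences near background depend on its model and an overall shift in RNA is removed. Array medians were 3.32 to 3.43. The number of arrays limits the precision.

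Names came from the platform annotation (34945 probe sets with 1 symbol, 932 with several, 9160 with none). Probe sets with a mean of at least 3 over the 6 arrays were fitted in R 4.3.3 with limma 3.58.1 (lmFit, eBayes, no block, two-sided), with Benjamini-Hochberg adjustment over all 24385 at 0.05. Named in the text are all members, and of each further list up to 4 called genes or else the one with the smallest p. Other genes, among them further receptors, NF-kB subunits and cell type markers, were named for their role or after their values were seen. Not all of them are marked so. Members and lists were chosen with earlier results of these data known. On simulated data of 24385 probe sets, 8.96% of changes of 2-fold were recovered, 50.7% of those of 4-fold and 84.8% of those of 16-fold, with 2 false calls among 98. The simulation changed only a small part of the probe sets and drew independent noise for each. Shifts shared by many genes of 1 array were not simulated, so these shares may not hold for the real arrays. Alternatives were other minimums, moderation, normalization, a floor, array weights, the replicate block, other probe set choices and each array left out. Promoters were searched with Python 3.11.15, and figures drawn with matplotlib 3.10.9.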

Additional observations from a re-analysis of the deposited data

How the results depend on the processing

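The number of members called, 0 higher and 0 lower, was the same with no minimum, a minimum of 4, ordinary t statistics, quantile normalization again, centred arrays, values below 3 set to 3 and both other probe set choices. Trend and robust moderation called 1 higher and 1 lower, and gene-by-gene array weights 2 higher and 3 lower. Without 1 array 0 to 1 were called higher and 0 lower. Over all tested genes 395 were called, but 1496 with array weights, 0 with ordinary t statistics (2442 at an unadjusted p under 0.05) and 31 to 465 without 1 array. The cause was not tested.

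The samples share only a replicate number: deviations from the group means correlated at -0.06, 0.11 and 0.24 between arrays of the same number, and not every array correlated best with its own number. With the replicate block 73 genes and 0 members were called, and Clcf1 (limma adjusted p 0.0764) and Gadd45b (0.0995) were not.

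Ordinary t statistics ended the calls of Tnfrsf1b, Clcf1, Gadd45b and Plau (0.111 to 0.162). The called probe sets of Nfkbia and Vcam1 did not pass with ordinary t statistics (0.113 and 0.132) or with the replicate block (0.101 and 0.0719). Array weights called Nfkbie (0.0154) and Zc3h12a (0.0136). The alternatives for these 6 genes were added after the data were seen. By their brightest probe sets, of the tested members only Cxcl10, Ccl5, Lif and Csf1 turned sign. With array weights Cxcl10 gave -0.0474 and Ccl5 0.14. Without 1 array Cxcl10 ranged from -0.0483 to 0.35 and Ccl5 from -0.70 to 0.27. Lif ranged from -0.40 to 0.20 and Csf1 from -0.16 to 0.0683. Members near a log2 value of 3 are limited by background.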

Other observations

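Some listed genes outside the members had wide differences between the groups and did not pass the test. They were picked after their values were seen, and are given as values. Cxcl3, a neutrophil attractant of the same class as Cxcl1 and Cxcl2, read 8.67, 7.15 and 2.82 in heterozygous and 1.63, 2.79 and 1.45 in null arrays (limma adjusted p = 0.154). It was lowest among heterozygous arrays in replicate 3, where Cxcl1 was highest. Selp, an adhesion molecule known from platelets and endothelium, read 6.60, 5.20 and 7.97 against 3.66, 4.16 and 3.27 (adjusted p = 0.0776), in arrays whose Pecam1 and Cdh5 were in the background range. Bcl3, an atypical partner of NF-kB subunits in the nucleus, read 3.42, 3.07 and 5.10 against 5.17, 6.09 and 6.94 (adjusted p = 0.121). Ptger3, a prostaglandin receptor, read 5.34, 7.63 and 2.04 against 1.53, 1.64 and 1.57 (adjusted p = 0.188), with heterozygous replicate 3 again apart from the other heterozygous arrays.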
